A study of Drosophila melanogaster with 2 samples.

Results

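The genes described here encode proteins of the mitochondrial ribosome in *Drosophila melanogaster*. The measurement is where the zinc finger protein Ham (hamlet) was found on chromatin near their start sites. They are the protein-coding genes whose symbol begins with mRpL, for the large subunit, or mRpS, for the small subunit. Any gene of that ribosome under another symbol is left out by this rule. Of 13968 protein-coding genes on the main chromosome arms, 73 met that rule, 47 of the large and 26 of the small subunit. Chromatin immunoprecipitation with an antibody against GFP was done on whole transgenic embryos, 0 to 24 hours old, of a strain with a ham-eGFP fusion, and the labels name 2 biological replicates. Both replicates carry the fusion and form a single group, so there is no untagged, mutant or other condition to set against them, and the control libraries that the labels point to were not analysed here. The signal is a mixture over every cell type of the embryo, and the labels do not say whether unfused Ham was also present.

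The mitochondrial ribosome translates the few proteins that the mitochondrial genome encodes, which are subunits of the oxidative phosphorylation complexes. All its proteins are encoded in the nucleus, made in the cytoplasm and imported, and the ribosome forms when they join the ribosomal RNAs of the mitochondrial genome. Ham belongs to the PR domain family of zinc finger proteins and acts in cell fate decisions of the peripheral nervous system.

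The deposited values are peaks. Each has a summit, a signal value that is the authors' own and is called its height here, and a score of up to 1000 that rises with reproducibility. Candidate regions stand in a ranked list, and those that passed the submitters' threshold stand in a thresholded list with a lowest score of 830. A gene was counted as having a promoter peak where a summit lay within 500 bp of any of its annotated start sites. The lists of both replicates pooled held 1495 thresholded peaks among 150585 candidate regions. Replicate 1 had 516 thresholded peaks and replicate 2 had 1050. Read depth is unknown, and heights are ranked only within a list because no source says that the lists share a scale.

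A promoter peak was listed for 7 of the 73 mitochondrial ribosomal protein genes (9.59%) in the pooled thresholded list, where 6.59% of all protein-coding genes had such a peak. These were mRpL41, mRpL23, mRpL20 and mRpL24 of the large subunit (4 of 47 genes, 8.51%) and mRpS10, mRpS23 and mRpS2 of the small subunit (3 of 26, 11.5%). The gene set was selected on its symbols but proposed with these peak heights known, so the counts and heights are given as a description, with no test. The same 7 genes had a peak in the conservative list (all genes 4.17%), in replicate 1's own thresholded list (all genes 2.69%) and in both replicates' own lists (all genes 2.41%). Replicate 2's list held 8 of the 73 (11.0%, all genes 5.7%), the addition being mRpS31. The median height of the 7 pooled peaks was 434, against a median of 109 for the highest promoter peak of every protein-coding gene that had any.

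**Figure D1:**
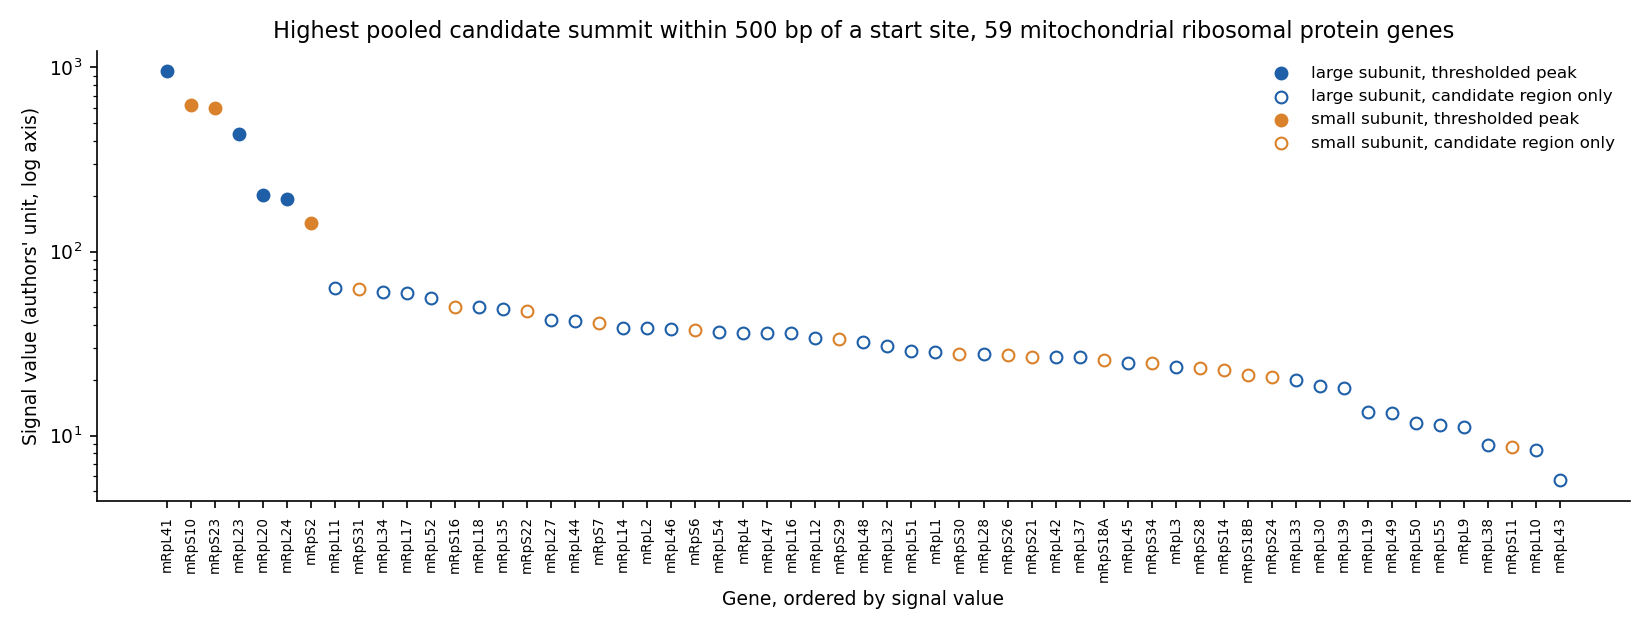
Signal value (authors' unit, log axis) of the highest pooled candidate summit within 500 bp of a start site, for the 59 mitochondrial ribosomal protein genes that had one, ordered by value. Filled points are the 7 genes with a thresholded peak, from 954 for mRpL41 to 143 for mRpS2, and open points are the 52 genes with a candidate region only, all at or below 63.6.

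The highest peak of the set was that of mRpL41 (FBgn0034001), a protein of the large subunit specific to mitochondria. Its pooled height was 954, rank 3 among all thresholded peaks, with a height of 258 at rank 4 in replicate 1 and of 699 at rank 3 in replicate 2. The peak was 260 bp wide, on 2R from 15217623 to 15217882 (dm6), and its summit lay 134 bp upstream of the mRpL41 start site. No other protein-coding gene had a start site within 500 bp of that summit. The noncoding gene lncRNA:CR44463 did, on the same strand as mRpL41, and its start lay 578 bp upstream of that of mRpL41. The nearest protein-coding start facing away was that of CG8079, 762 bp upstream.

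The peaks of mRpS10 and mRpS23 were the next in height. mRpS10 (FBgn0038307) encodes a relative of the bacterial small-subunit protein S10. Its peak had a pooled height of 626 at rank 8, a height of 161 at rank 22 in replicate 1 and of 465 at rank 6 in replicate 2. It ran from 15229423 to 15229658 on 3R, with the summit 128 bp upstream of the gene's start and 129 bp from the start of Art3, an arginine methyltransferase gene on the opposite strand. The 2 starts were 257 bp apart, so the pooled summit lay midway between them, while the summits of both replicates' own lists lay nearer to Art3. mRpS23 (FBgn0260407), a small-subunit protein specific to mitochondria, had a pooled height of 601 at rank 11, with 177 at rank 14 in replicate 1 and 428 at rank 9 in replicate 2. That peak, on 2L from 13835350 to 13835559, had its summit 381 bp upstream of mRpS23, the farthest of the set, and 111 bp from the start of CenG1A, an Arf GTPase-activating protein gene transcribed the other way.

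mRpL23 (FBgn0035335) encodes a relative of the bacterial L23 protein, which sits at the exit of the ribosome's peptide tunnel. Its peak had a pooled height of 434 at rank 28, with 121 at rank 48 in replicate 1 and 309 at rank 27 in replicate 2. On 3L from 2373503 to 2373689, it was the only peak of the 7 with its summit downstream of the gene's nearest start, by 52 bp. The window of 101 bases around that summit overlapped an annotated UTR. No other thresholded summit lay inside the body of any of the 73 genes. The neighbour CG9004 started 24 bp from the outermost mRpL23 start, on the opposite strand, and the summit lay 102 bp from its start. There were 16 promoter peaks of genes outside the set that were higher than this one.

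The remaining 3 peaks were lower and had the default width of the pooled list, 336 bp. mRpL20 (FBgn0036335), whose bacterial relative L20 acts in assembly of the large subunit, had a pooled height of 202 at rank 157, with 71.5 at rank 155 in replicate 1 and 137 at rank 167 in replicate 2. Its peak was on 3L from 13017952 to 13018287, 253 bp upstream of mRpL20 and 146 bp from the start of Icmt, a methyltransferase gene for prenylated proteins. mRpL24 (FBgn0031651), whose bacterial relative L24 starts large-subunit assembly, had a pooled height of 193 at rank 177, with 57.3 at rank 250 in replicate 1 and 143 at rank 148 in replicate 2. Its summit, in a peak on 2L from 4945309 to 4945644, lay 116 bp upstream of the gene and 102 bp from the start of betaggt-I, a subunit gene of an enzyme that prenylates proteins. mRpS2 (FBgn0031639), related to the bacterial small-subunit protein S2, had a pooled height of 143 at rank 320, with 48.7 at rank 338 in replicate 1 and 86.6 at rank 403 in replicate 2. Its peak ran from 4850410 to 4850745 on 2L, 159 bp upstream of mRpS2 and 63 bp from the start of Mon1, a gene that acts in endosome maturation.

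The bases at these summits are shown because the share of A and T was high at each of them. The windows of mRpS10, mRpS23, mRpL20, mRpL24 and mRpS2 are printed, and those of mRpL41 and mRpL23 are described by their composition only. Each line gives 101 bases centred on the pooled summit, read 5′ to 3′ on the strand of the mitochondrial ribosomal protein gene from RefSeq's Release 6 genome. Capitals mark unbroken runs of at least 8 bases that are A or T.
mRpS10 (chr3R:15229487-15229587, plus strand): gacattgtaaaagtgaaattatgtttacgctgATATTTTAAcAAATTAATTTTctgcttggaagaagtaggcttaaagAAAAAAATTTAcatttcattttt
mRpS23 (chr2L:13835403-13835503, minus strand): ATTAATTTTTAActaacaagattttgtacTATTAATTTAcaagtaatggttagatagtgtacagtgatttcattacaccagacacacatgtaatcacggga
mRpL20 (chr3L:13018070-13018170, minus strand): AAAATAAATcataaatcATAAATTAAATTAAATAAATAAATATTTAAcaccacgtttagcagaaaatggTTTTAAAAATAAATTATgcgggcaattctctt
mRpL24 (chr2L:4945427-4945527, minus strand): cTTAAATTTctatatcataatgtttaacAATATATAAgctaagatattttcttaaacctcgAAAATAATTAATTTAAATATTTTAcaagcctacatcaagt
mRpS2 (chr2L:4850528-4850628, minus strand): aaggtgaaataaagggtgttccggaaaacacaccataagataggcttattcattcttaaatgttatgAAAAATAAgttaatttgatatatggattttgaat
The mRpL20 window has 56 of its bases in such runs and the mRpL24 window 41. The windows of mRpS10 and mRpS23 have 31 and 22, and that of mRpS2 has 8, in a single run.

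Over the 7 summit windows 76.2% of the bases were A or T (95% Wilson interval 73.0% to 79.2%, counting error only), against 52.7% (50.1% to 55.3%) in equally wide flank windows whose centres lay 500 bp to the left and right of each summit. Every member window lay in a narrow range, from 71.3% at mRpS23 to 80.2% at mRpL20 and mRpL24, with 77.2% at mRpL41, 76.2% at mRpS10 and mRpL23 and 72.3% at mRpS2. The flanks were wider in range, 41.6% to 68.3%, and did not reach the lowest summit window. Other thresholded promoter summits (685) had 64.1% A and T, with 55.1% in their flanks. The 201 of these that were at least as high as the mRpS2 peak had 69.1%, with 55.0% in their flanks. The 252 that lay within 500 bp of at least 2 protein-coding genes had 67.0%, with 50.7% in their flanks. At the 52 candidate summits of mitochondrial ribosomal protein genes without a thresholded peak the share was 56.6% (55.3% to 57.9%), with 52.8% in their flanks. Within the 7 the share did not follow height, since it was highest at mRpL20 and mRpL24, the fifth and sixth in height, and lowest at mRpS23, the third.

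**Figure D2:**
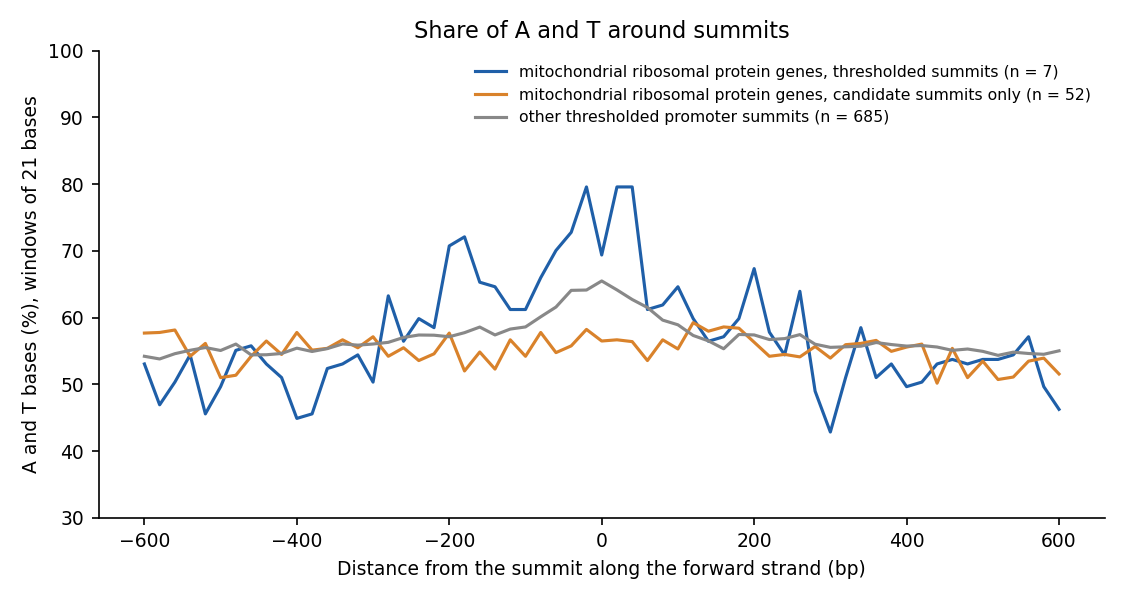
Share of A and T (%) in windows of 21 bases, every 20 bp out to 600 bp on either side of the summit, for the 7 thresholded summits of mitochondrial ribosomal protein genes (blue), the 52 candidate-only summits of the same gene set (orange) and the 685 other thresholded promoter summits (grey). Distances run along the forward strand and are not turned to the strand of the gene. The blue line is highest close to the summit, at 79.6% in the windows 20 bp to its left and 20 and 40 bp to its right. It is at 69.4% in the window on the summit itself, with a further rise to 72.1% at 180 bp to the left. The grey line has a lower rise around the summit, and the orange line has no rise of that size.

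The longest unbroken A or T run in a summit window was 30 bases at mRpL20, 24 at mRpL24, 16 at mRpL23, 14 at mRpL41, 12 at mRpS23, 11 at mRpS10 and 8 at mRpS2. A run of at least 10 bases was present in 6 of the 7 windows (85.7%), against 354 of the 685 other promoter summit windows (51.7%) and 129 of the 201 high ones (64.2%). Run lengths were examined after the A and T content had been seen. Among the words searched on both strands, TTAAAA was in 5 of the 7 summit windows (71.4%) and in 1 of their 14 flank windows (7.14%). It was in 34.3% of the other promoter summit windows and in 44.3% of the high ones. ATTTTA was in 4 of the 7 (57.1%) and in 0 of the 14 flanks, against 30.4% of other promoter summits and 36.8% of the high ones. These words can overlap, since ATTTTAA holds both on opposite strands, and both are made of A and T, so they restate the base content. The other words were rare in the 7 windows, at counts that the shares among other promoter summits leave uninformative. TATAAA was in 1 summit window, against 22.5% of other promoter summits. GATAA was in 1, that of mRpL41, against 22.3%, and GAGAG in 1, against 9.2%. TATCGATA was in 0 of the 7, against 2.48% of other promoter summits, and CAGCTG in 0, against 3.5%. The words GGTCACACT, GCGCATGC, CATCNCTA and CAGCNCTA were also in 0 of the 7, and at other promoter summits their shares ran from 0.584% to 1.9%.

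The positions of the summits were also compared with the start sites. Of the 7 summits 6 lay upstream of the mitochondrial ribosomal protein gene. Upstream was also the more frequent position at the promoter peaks of oxidative phosphorylation and cytoplasmic ribosomal protein genes. The upstream share over all promoter peaks was not counted. Of the 7 summits 6 were also within 500 bp of the start of another protein-coding gene, in each case on the opposite strand. That neighbour's start was the nearer of the pair at mRpS23, mRpL20, mRpL24 and mRpS2. The start of the mitochondrial ribosomal protein gene was nearer at mRpL41, at mRpL23 and, by a single base pair in the pooled list, at mRpS10. In the replicates' own lists the mRpS10 summit lay 159 bp (replicate 1) and 129 bp (replicate 2) upstream of mRpS10, which put Art3 nearer. At the 6 shared windows the lists do not tell a peak of the mitochondrial ribosomal protein gene from a peak of its neighbour. The labels give chromatin fragments of 200 to 800 bp, so a difference of a few bases between distances carries little weight. Counting each peak for its nearest protein-coding gene alone left 3 of the 73 genes with a peak. Only 692 pooled thresholded peaks lay within 500 bp of a protein-coding start. Under that rule at most 692 of the 13968 protein-coding genes could therefore have a peak, and the share reached was not counted. Among the other promoter peaks, 252 of 685 (36.8%) were within 500 bp of at least 2 protein-coding genes.

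**Figure D3:**
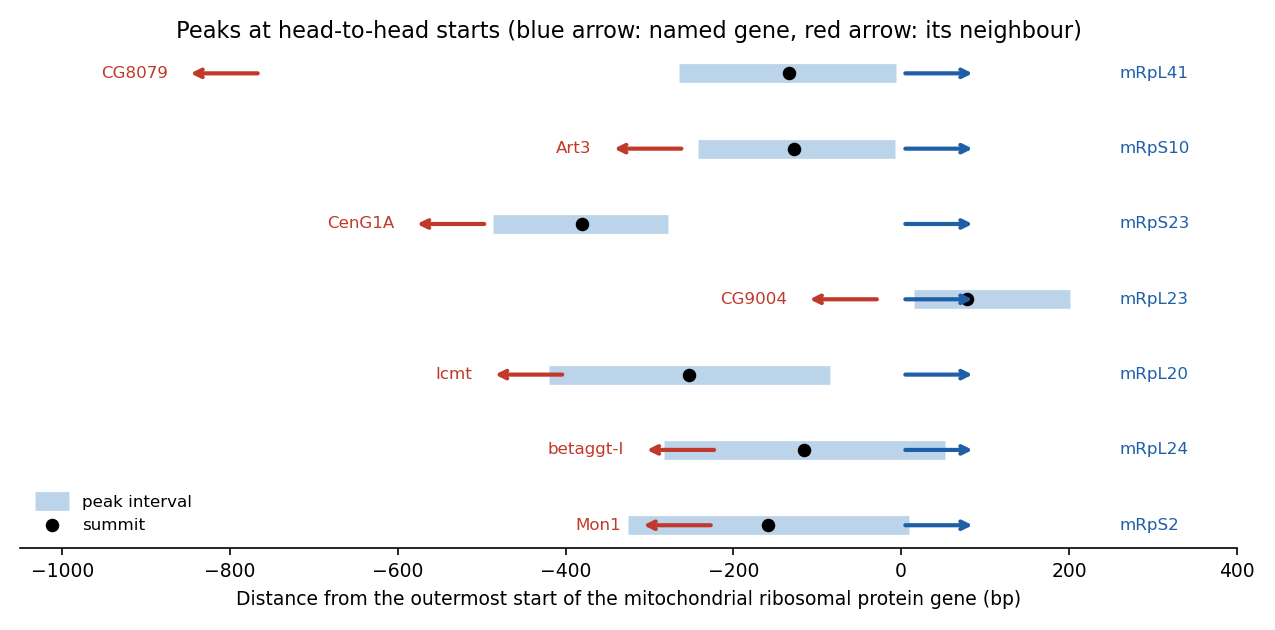
Pooled peak interval (pale bar) and summit (black dot) at each of the 7 genes, in bp from the outermost start of the mitochondrial ribosomal protein gene, drawn to the right (blue arrow), with the nearest protein-coding gene that starts upstream on the opposite strand (red arrow). The mRpL23 summit alone lies downstream, the mRpS10 summit lies midway between the starts, and the mRpS23 summit lies nearer to CenG1A; arrows show start and direction, not gene length.

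A head-to-head layout was common in the whole gene set. A protein-coding gene on the opposite strand started within 1000 bp upstream for 56 of the 73 (76.7%), against 33.3% of all protein-coding genes. It held for 7 of 7 genes with a thresholded peak and for 49 of the 66 without. The starts of such pairs were 24 to 762 bp apart at the genes with a peak (median 257) and 20 to 793 bp apart at those without (median 290), so the ranges overlapped almost fully. Of the 56 divergent mitochondrial ribosomal protein genes 12.5% had a promoter peak, and of all 4648 divergent protein-coding genes 11.3% did (524 genes). Of the 9320 genes without a divergent partner 4.26% had a promoter peak. This layout was looked at after the peaks had been seen, and it moves with the count of peaks, while its part in that count was not tested. The window from 250 bases before the outermost start to 50 after it had 55.5% to 70.8% A and T at the genes with a peak (median 67.8%). At those without it had 42.5% to 74.1% (median 64.5%). This window does not hold the summits of mRpL20, mRpS23 and mRpL23, so it is not a measure of the bases under those peaks. The median over all genes was 62.1%.

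The replicates placed the summits of these peaks from 1 to 95 bp apart. The summits of replicates 1 and 2 were 1 bp apart at mRpS2, 9 bp at mRpS23, 13 bp at mRpL41, 14 bp at mRpL23, 30 bp at mRpS10 and 33 bp at mRpL24. The farthest apart were those at mRpL20, by 95 bp. The order of the 7 heights was also close. In replicate 1 mRpS23 stood above mRpS10, and in replicate 2 mRpL24 stood above mRpL20; all other ranks within the set were as in the pooled list. Spearman's rho between the replicates' heights was 0.929 over these 7 peaks, a description over peaks of the same libraries. The 7 had passed a threshold on a score that rises with reproducibility, a choice that favours agreement between replicates. The same values were not computed for other thresholded peaks. All 7 pooled peaks had the top score of 1000, and the lowest score among them in replicate 2 was 849, at mRpS2.

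**Figure D4:**
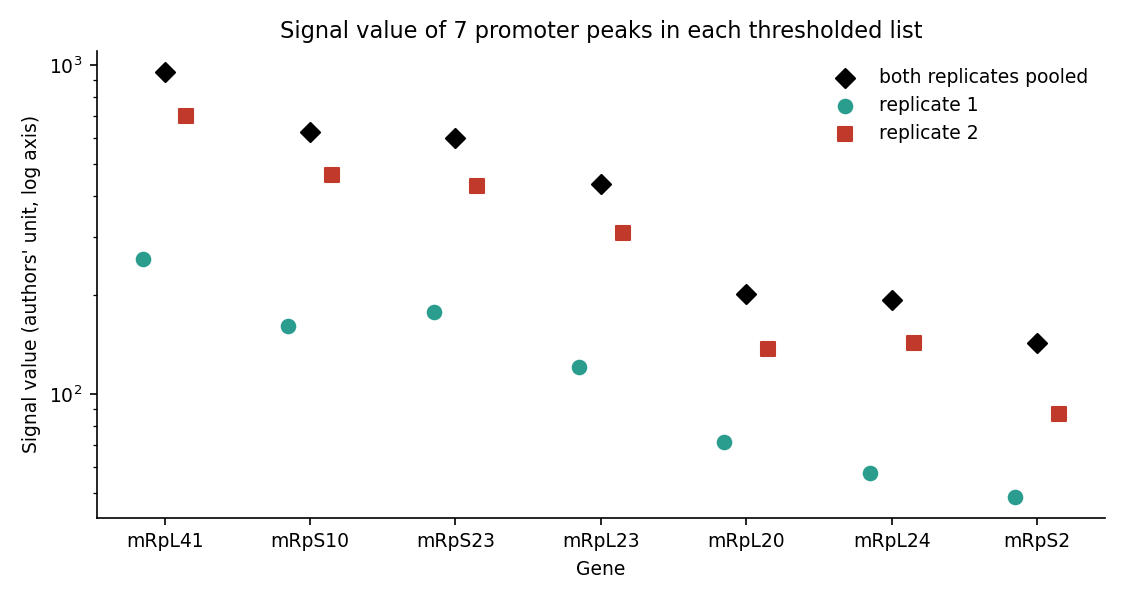
Signal value (authors' unit, log axis) of the 7 promoter peaks in the pooled list (black diamonds), replicate 1 (green circles) and replicate 2 (red squares). No source says that the lists share a scale, so only the order within a list is read, and mRpL41 is the highest and mRpS2 the lowest in all 3.

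The other 66 mitochondrial ribosomal protein genes had no thresholded promoter peak. Of these, 52 had a candidate summit in the pooled ranked list, with heights from 5.7 to 63.6 and a median of 28.0. The 10200 protein-coding genes in the same position, with a candidate and no thresholded promoter peak, had a median of 30.6. With the 7 peaked genes, 59 of 73 (80.8%) had a pooled candidate summit, against 79.6% of all protein-coding genes. Replicate 1's ranked list held one for 38 genes of the set (all genes 59.5%) and replicate 2's for 58 (all genes 80.9%). In replicate 1 the genes without a thresholded pooled peak had candidate heights of 3.54 to 26.0 (31 genes, median 9.1), and in replicate 2 of 5.93 to 51.1 (51 genes, median 21.5). No pooled candidate summit was listed for 14 genes, namely mRpL13, mRpL15, mRpL21, mRpL22, mRpL36, mRpL40, mRpL53, mRpS5, mRpS9, mRpS17, mRpS18C, mRpS25, mRpS33 and mRpS35. Of those, 9 had none in either replicate's ranked list.

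A gap separated the peaked genes from the rest. The lowest thresholded height was 143, at mRpS2, and the highest candidate without a threshold pass was 63.6, at mRpL11 (FBgn0038234), which shares its window with HtrA2, a mitochondrial protease gene. mRpL11 had a pooled score of 714 and a height of 26.0 in replicate 1, and no candidate summit in its window in replicate 2. mRpS31 (FBgn0036557) followed with 62.5 and a score of 805, the nearest to the minimum of 830 from below. Its summit lay 482 bp downstream of its start. It had no candidate summit in replicate 1, and in replicate 2 it passed with a score of 831 and a height of 51.1 at rank 986. mRpL34 (60.6, score 696, with the dystroglycan gene Dg in its window), mRpL17 (59.2, score 499) and mRpL52 (55.8, score 653, with CG12107 in its window) were the next. Of the candidate regions, 169 passed the score minimum and were yet absent from the thresholded list, and 0 of them lay at a mitochondrial ribosomal protein gene.

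The limit of 500 bp fell in an empty stretch. The farthest summit inside it was that of mRpS23, 381 bp away. The nearest outside was 1218 bp downstream of the mRpL27 start, beyond the end of that gene, with a height of 63.5. It was the promoter peak of the cytoplasmic ribosomal protein gene RpL27A, whose start was nearer. Thresholded summits between 500 bp and 5000 bp from a start numbered 14 over the set. The share of all protein-coding genes with a summit at such distances was not counted, and these summits may be peaks of other genes. The highest of the 14 was 2750 bp upstream of mRpL33 on X, with a height of 326. The next were at mRpL46 (195, 1896 bp upstream) and mRpL28 (179, 3271 bp downstream). By arm, promoter peaks were listed at 3 of 12 genes on 2L, 1 of 12 on 2R, 2 of 17 on 3L, 1 of 21 on 3R and 0 of 11 on X. The shares of all protein-coding genes by arm were not counted.

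Related gene lists had other patterns of count and height in the pooled thresholded list. Of the 17 matched other genes for the mitochondrial ribosome and mitochondrial translation 1 had a promoter peak. It was GatA, a subunit gene of the glutamyl-tRNA amidotransferase, with a height of 73.6. Of the 15 mitochondrial aminoacyl-tRNA synthetase genes 0 had a promoter peak. Of 15 genes for mitochondrial DNA and transcription 4 did (26.7%), the highest being PNPase (537), which encodes an RNA-degrading enzyme, SLIRP2 (356), an RNA-binding protein gene, and mtSSB (79.3), for the single-stranded DNA-binding protein. Oxidative phosphorylation genes had 6 of 93 (6.45%), led by ND-ASHI (188) and ND-MWFE (142) of complex I and ATPsynE (97.5) of the ATP synthase. The mitochondrial ribosomal protein genes had 7 of 73 (9.59%) with a median height of 434, against 31 of 93 (33.3%) with a median of 105 for the cytoplasmic ribosomal protein genes, led by RpL7 (322), RpL34b (254) and RpS27 (248). With a peak in both replicates' own lists the counts were 7 of 73 and 9 of 93 (9.68%). These differences between lists were not tested.

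**Figure D5:**
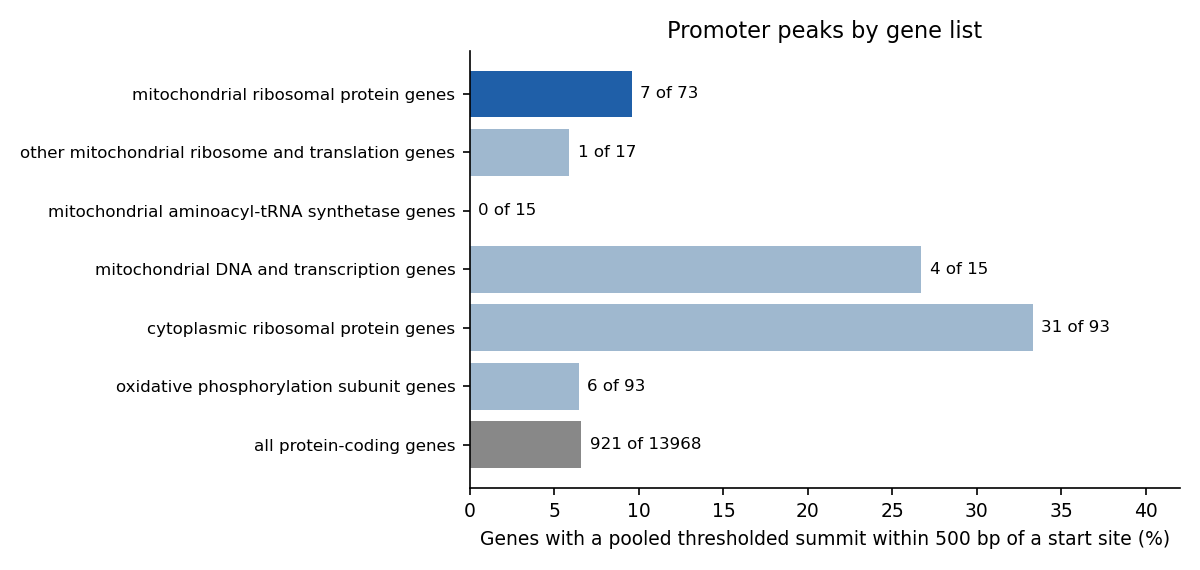
Share of genes (%) with a pooled thresholded summit within 500 bp of a start site in each gene list, with the counts beside each bar. The mitochondrial ribosomal protein genes (7 of 73) stand at 9.59%, the cytoplasmic ribosomal protein genes at 33.3% and all protein-coding genes, in the bottom bar, at 6.59%.

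Short words were counted in the promoters of the whole set. Windows from 250 bases before to 50 after the outermost start were searched on both strands. Among the genes with a peak, the windows of mRpL20, mRpS23 and mRpL23 do not hold the summit. CAGCTG, a palindromic form of the E-box, was in 40 of the 73 promoters (54.8%), against 21.7% of promoters of divergent genes and 17.7% of all protein-coding promoters. It was in 4 of the 7 promoters with a peak (mRpL23, mRpL24, mRpL41 and mRpS2) and in 36 of the 66 without (54.5%). TATCGATA, known as the DNA replication-related element, occurred in 15 (20.5%), against 16.5% of divergent and 9.36% of all promoters. It was in 2 of the promoters with a peak, mRpL20 and mRpS23, and in 13 of those without. At both mRpL20 and mRpS23 the summit lay upstream of the window searched. A following A makes GATAA within that word, and GATAA itself was in 56.2% of the set, against 60.6% of divergent and 55.2% of all promoters. GGTCACACT, the core of the M1BP motif, was in 8 (11.0%), 0 of them with a peak, against 10.8% of divergent and 6.04% of all promoters. CATCNCTA was also in 8 (11.0%, against 11.3% of divergent and 6.42% of all promoters), with mRpL41 among them. CAGCNCTA was in 3 (4.11%, against 4.71% of divergent and 3.57% of all promoters) and GCGCATGC in 1, that of mRpL21 (1.37%, against 0.753% and 1.05%). GAGAG was in 16.4%, against 22.8% of divergent and 29.8% of all promoters, and TATAAA in 46.6%, against 49.4% and 45.9%. TTAAAA was in 71.2%, against 61.2% of divergent and 53.4% of all promoters, and ATTTTA in 65.8%, against 58.5% and 50.7%. A match is a description of the letters and not of binding.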

How the data were processed

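Peak lists of 2 replicates and of both pooled, on dm6 per the labels, were used as deposited by the authors. The aligner, the peak caller and its settings, not given in the sources used here, could each change the heights. The labels name possible control libraries and not whether they were used. The signal value of a peak and its score are the authors' values, and the −log10 of the irreproducible discovery rate in the deposited ranked lists was only recorded. Depth is unknown, so no interval on a height is given; Wilson intervals on base shares cover counting error only. A conservative thresholded list was used as an alternative, and its ranked list was not used.

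Start sites came from Ensembl release 115 and bases from RefSeq Release 6. The start codon read ATG at 73 of 73 members, and 0 peaks ended beyond their arm. Main arms only were used. Summits were assigned with Python 3.11.15 and pandas 2.3.3. On simulated lists 200 of 200 planted summits were recovered.

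The members, gene lists and words were chosen with earlier results of these data known. Named are all members with a thresholded promoter peak, the 5 highest without, those nearest each limit, the 3 highest of each other list, and genes that share a window. Of 29 symbols listed for other mitochondrial ribosome and translation genes 17 matched the annotation, and of 17 for mitochondrial DNA and transcription 15 did. The oxidative phosphorylation prefix also took in Sdhaf3, an assembly factor. No test was made, because there is a single group and its peak heights were known when the genes were proposed.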

Additional observations from a re-analysis of the deposited data

How the results depend on the processing

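Of 22 other settings tried for the summary values, 19 left them within 1.5 times or within the interval and 3 moved them. Giving each peak to its nearest protein-coding gene left 3 of the 73 genes with a promoter peak (mRpL41, mRpS10 and mRpL23), since the neighbour's start is nearer at the other 4. That count used pooled summits, and in each replicate's own list Art3 was nearer than mRpS10. The share of all protein-coding genes under this rule was not counted. Summit windows that reached 100 bp each way had 70.6% A and T in place of 76.2%. TATCGATA was in 0 of the 7 windows around the summit, against 2 of the 7 promoter windows. Leaving out a replicate gave 7 to 8 genes with a peak. A limit of 250 bp gave 5, without mRpL20 and mRpS23, and the share of all genes at that limit was not counted. The median height was 434 under each of its alternatives. No paired analysis was possible because the series has a single group. The limits are those of peak lists: unknown depth, no control analysed here, heights not known to share a scale between lists, and whole embryos in which cell types cannot be told apart.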

Other observations

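CAGCTG was also frequent in promoters of other genes for mitochondrial gene expression, a tally made after its share in the mitochondrial ribosomal protein genes had been seen. It was in 40 of 73 of those promoters (54.8%) and in 9 of 17 of the other genes for the mitochondrial ribosome and translation (52.9%). Mitochondrial aminoacyl-tRNA synthetase genes had it in 7 of 15 (46.7%) and mitochondrial DNA and transcription genes in 6 of 15 (40.0%). Oxidative phosphorylation genes had it in 22 of 93 (23.7%) and cytoplasmic ribosomal protein genes in 9 of 93 (9.68%), with 17.7% over all protein-coding genes.

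Within the mitochondrial ribosomal protein genes the 45 matches of CAGCTG had a median position 2 bases downstream of the outermost start, and 39 of them (86.7%) began no farther than 100 bases upstream. In 5 genes it occurred at least 2 times. It was in 30 of the 56 divergent genes (53.6%) and in 10 of the other 17 (58.8%).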
